A study of Homo sapiens with 24 samples.

Results

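The genes described here are the Notch receptors NOTCH1, NOTCH2 and NOTCH3, the ligands JAG1 and JAG2, the fringe enzymes LFNG and MFNG, the DNA-binding factor RBPJ and the target genes HES1 and HEY1, in 2 glioma cell lines. They were taken from every sheet by exact gene symbol, and 9 of the 10 were found among 34229 gene names. JAG1 stood only under the name JAG1_1, whose suffix is not explained in the sources used here, so that row is given under its own name and not counted. The set was chosen by pathway role with earlier results of these values in view, in which LFNG was low in 1321N1 cells given both compounds. The values, limma changes and counts of calls below therefore describe these genes. No p is given for a gene of the set, and no call of one is taken as support.

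RNA was sequenced from the established lines LN18 (grade IV) and 1321N1 (grade II) after 24 h of treatment. The groups were EGCG+HC, HC, EGCG and the vehicle control, with 3 libraries each, 24 in all. EGCG, epigallocatechin-3-gallate, is a green tea catechin, and both lines received 50 µg/ml of it. HC, hydroxychavicol, is a phenol of betel leaf and was used at 20 µg/ml in 1321N1 and at 10 µg/ml in LN18, alone and in the combination. The vehicle contained ethanol. By the paper's methods the medium of 1321N1 held more foetal bovine serum than that of LN18. Because the dose of HC differed, the lines are set side by side for HC and EGCG+HC and their responses are not compared. The labels give the libraries of a group as independent tests of 1 line, so that the spread covers repeated cultures of that line only.

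Notch is a receptor that is cut when a ligand on a neighbouring cell binds it. The freed intracellular part enters the nucleus, joins RBPJ and switches on genes such as HES1 and HEY1, which encode repressors of transcription. Fringe enzymes extend the O-fucose sugars on the receptor and so change which ligands activate it. In the brain, Notch is known for holding neural progenitors and glia in an undifferentiated state.

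In 22 libraries the steps between low values gave about 13700000 to 40600000 counted reads per library. In 1321N1 EGCG replicates 2 and 3 no such depth was found, and these libraries listed 263 genes at 0 that were above 1 RPKM in replicate 1. None of the 263 was annotated as protein coding, and MT-RNR2, a mitochondrial rRNA, was among them. The astrocyte marker GFAP was near 0 in both lines, with mean levels of 0.0843 RPKM in 1321N1 controls and 0.124 RPKM in LN18 controls, while VIM and CD44 were well expressed. Of the 10 glial markers 6 to 8 were listed per group and AQP4 and OLIG2 in none. Their summed level was 587 to 612 RPKM with EGCG+HC, against 1004 to 1092 RPKM in controls of 1321N1, and 254 to 257 RPKM with EGCG+HC, against 414 to 435 RPKM in controls of LN18. Most of that sum was VIM. The 6 epithelial markers summed to 26.9 to 30.5 RPKM with EGCG+HC, against 12.5 to 12.8 RPKM in controls of 1321N1, and in LN18 their sum was below the controls (58.7 to 60.8 RPKM with EGCG+HC, against 136 to 145 RPKM). The 6 blood cell markers, of which 3 were listed in 1321N1 and 5 in LN18, summed to 32.6 to 32.9 RPKM with EGCG+HC, against 23.5 to 25.6 RPKM in controls of 1321N1, and to 35.6 to 36.8 RPKM, against 17.6 to 21.5 RPKM, in LN18. KRT18 and KRT8 made up most of the epithelial sum and CD68 most of the blood sum, while EPCAM, CDH1 and PTPRC averaged under 0.5 RPKM in these groups. The blood marker CD14 averaged 2.85 RPKM with EGCG+HC, against 0.288 RPKM in controls of 1321N1, and 3.15 against 0.171 RPKM in LN18. HBA1, listed in LN18 only, averaged 4.59 RPKM with EGCG+HC, against 0.763 RPKM in controls. The neuronal sums stayed below 5 RPKM and the endothelial sums below 2 RPKM in every library. The part of these shifts in the results below was not tested, and in bulk RNA fewer cells of a kind and less RNA per cell cannot be told apart.

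Windows of 250 bases before the start sites of 3 genes are printed because RBPJ binds the letters TGGGAA and HES1 is its best known target. RefSeq (GRCh38.p14) gave 13 windows for 8 of the 10 genes. TGGGAA was searched on both strands, so that TTCCCA also counts, and 3 of the 13 windows held it, against 20.8% of 35114 windows of all genes. In the sequences the matches are in capitals, each is read 5′ to 3′ on the strand of the gene, and the match is a description of letters only.
HES1, chr3:194135898-194136147, plus strand: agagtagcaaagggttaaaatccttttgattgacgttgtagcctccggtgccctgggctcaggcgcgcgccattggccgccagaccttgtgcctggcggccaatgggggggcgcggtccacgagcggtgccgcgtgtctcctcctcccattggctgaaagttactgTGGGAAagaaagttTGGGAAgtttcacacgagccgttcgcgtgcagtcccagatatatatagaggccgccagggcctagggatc
LFNG, chr7:2517613-2517862, plus strand: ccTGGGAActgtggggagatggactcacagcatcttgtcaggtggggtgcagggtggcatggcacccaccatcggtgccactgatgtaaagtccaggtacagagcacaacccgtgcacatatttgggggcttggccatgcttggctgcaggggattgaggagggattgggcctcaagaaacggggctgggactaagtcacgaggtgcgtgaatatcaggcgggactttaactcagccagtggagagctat
RBPJ, chr4:26319496-26319745, plus strand: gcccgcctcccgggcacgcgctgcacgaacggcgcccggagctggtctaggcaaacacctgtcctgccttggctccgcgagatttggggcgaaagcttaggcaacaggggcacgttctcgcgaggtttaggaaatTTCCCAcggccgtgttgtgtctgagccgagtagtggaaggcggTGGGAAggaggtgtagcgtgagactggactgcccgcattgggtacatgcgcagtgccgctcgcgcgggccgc
The HES1 window held TGGGAA 84 and 70 bases before the start, and 2.90% of all windows held the letters at least 2 times. The LFNG window shown belongs to 1 of 2 starts and held TGGGAA at its far end, 248 bases before the start, while the other window had no match. The RBPJ window is 1 of 5 and held TTCCCA 115 and TGGGAA 72 bases before the start. No match was found in the windows of NOTCH1, NOTCH2, NOTCH3, JAG1 and JAG2.

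LFNG, lunatic fringe, is one of the fringe enzymes (GRCh37 chr7:2552163-2568811, plus strand). In 1321N1 it had 0.780, 0.633 and 0.581 RPKM with EGCG+HC, 1.48, 1.13 and 1.31 RPKM with HC, 5.66, 6.15 and 6.05 RPKM with EGCG, and 13.9, 12.49 and 12.0 RPKM in controls. The 4 groups did not overlap, and the order from low to high was EGCG+HC, HC, EGCG and control. The mean with EGCG+HC was 19.2-fold lower than in controls, with HC 9.80-fold lower and with EGCG 2.15-fold lower. In LN18 it had 0.487, 0.453 and 0.409 RPKM with EGCG+HC, 4.02, 3.57 and 3.18 RPKM with HC, 3.40, 3.36 and 3.43 RPKM with EGCG, and 7.85, 6.76 and 7.21 RPKM in controls. Here HC and EGCG overlapped each other, and the combination lay below both. The means were 16.2-fold lower with EGCG+HC, 2.03-fold lower with HC and 2.14-fold lower with EGCG. The low values rest on few reads, about 42 to 61 per library with EGCG+HC in 1321N1 and about 27 to 57 in LN18, against 725 to 808 and 414 to 752 in controls, taking the annotated exons of 3440 bases as the length.

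On the log2(RPKM + 1) scale, which understates changes of low genes, LFNG with EGCG+HC fell by 3.05 ± 0.07 (limma SE, n = 3 each) in 1321N1 and by 2.51 ± 0.06 in LN18. With HC it fell by 2.58 ± 0.08 and 0.85 ± 0.08, and with EGCG by 0.99 ± 0.06 and 0.91 ± 0.05, in 1321N1 and LN18 in that order. The limits used for all genes were an adjusted p up to 0.05 together with a fold from 1.5. LFNG was chosen as a gene low with EGCG+HC in 1321N1, and with EGCG+HC it passed the filter on low values through the controls alone, so its calls add nothing to the values. EGCG had the same dose in both lines, and the means with EGCG were 0.465 of the control in 1321N1 and 0.467 in LN18.

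MFNG, manic fringe, was near the floor (chr22:37865101-37882431, minus strand). In 1321N1 it had 0.101, 0.0890 and 0.0790 RPKM with EGCG+HC, 0.10, 0.0240 and 0 RPKM with HC, 0.114, 0.0640 and 0.111 RPKM with EGCG, and 0.136, 0.156 and 0.174 RPKM in controls. These are about 10 reads or fewer in each library whose depth was found. In LN18 it had 0.270, 0.316 and 0.243 RPKM with EGCG+HC, 0.420, 0.490 and 0.333 RPKM with HC, 0.164, 0.179 and 0.176 RPKM with EGCG, and 0.450, 0.366 and 0.288 RPKM in controls. Only the EGCG libraries of LN18 lay wholly below the controls there. RFNG, radical fringe, is the other fringe enzyme and is given with the pathway genes.

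**Figure D1:**
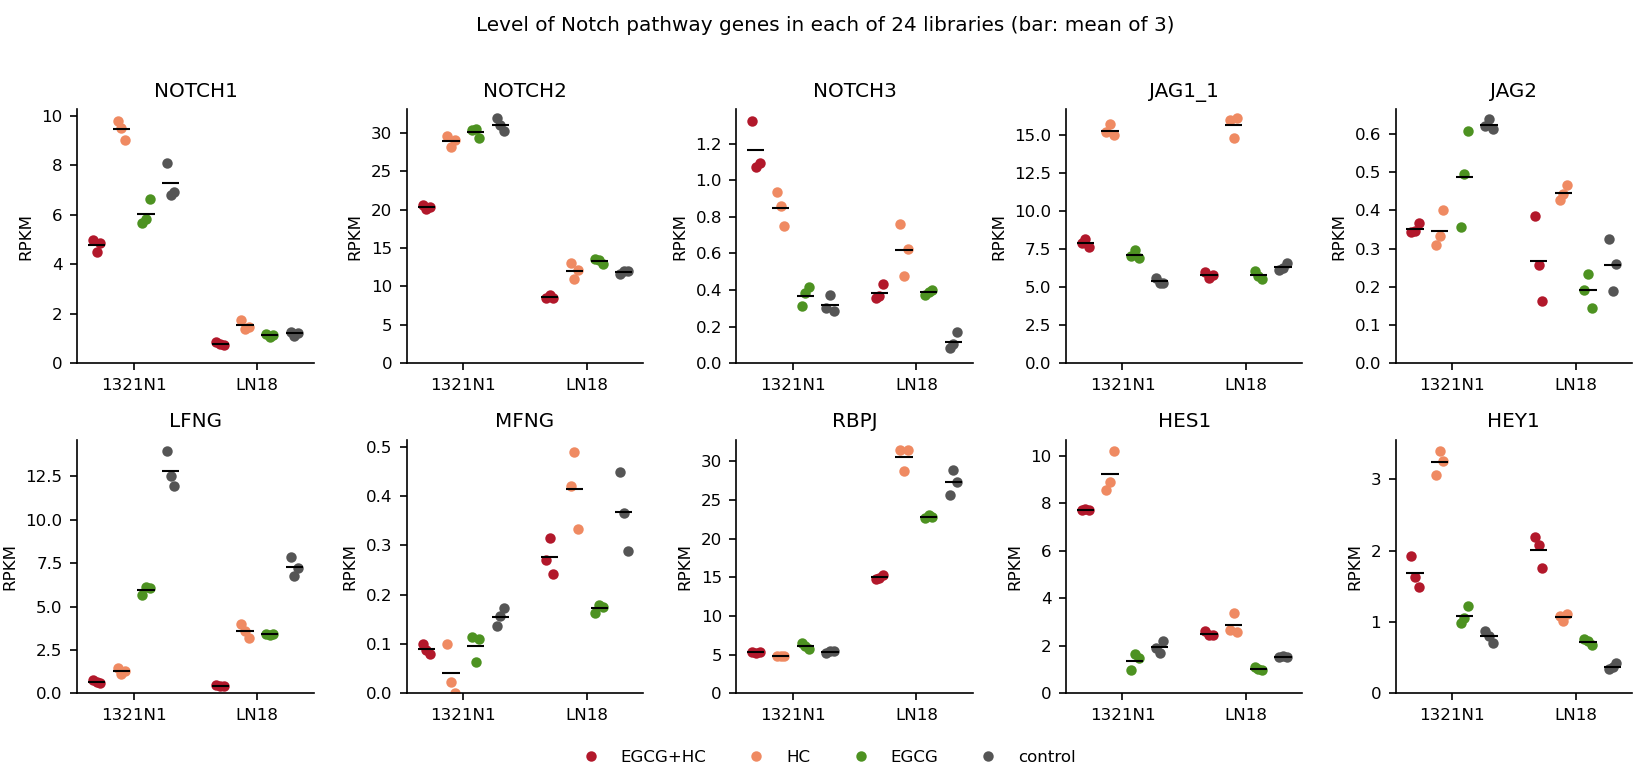
RPKM of each gene in the 24 libraries, by line and treatment, with a point for each library and a bar for the mean of 3. LFNG is lowest with EGCG+HC in both lines, HES1 is high with EGCG+HC and with HC in 1321N1, and RBPJ is higher in LN18 than in 1321N1 under every treatment.

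Of the receptors, NOTCH2 had the highest RPKM in both lines (chr1:120454176-120643366, minus strand). It had 20.6, 20.1 and 20.3 RPKM with EGCG+HC, against 31.9, 31.0 and 30.3 RPKM in controls of 1321N1, and 8.48, 8.87 and 8.52 RPKM with EGCG+HC, against 11.7, 12.1 and 12.0 RPKM in controls of LN18. All EGCG+HC libraries lay below all controls in each line, at 0.654 and 0.724 of the control mean. With HC alone NOTCH2 was at 0.931 of control in 1321N1 and 1.01 in LN18, and with EGCG alone at 0.968 and 1.12. Its reads may be shared with the NOTCH2NL copies, so that its level is uncertain.

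NOTCH1 (chr9:139388885-139440500, minus strand) lay on opposite sides of the control with EGCG+HC and with HC. In 1321N1 it had 4.96, 4.49 and 4.86 RPKM with EGCG+HC, 9.80, 9.52 and 9.03 RPKM with HC, 5.68, 5.81 and 6.63 RPKM with EGCG, and 8.09, 6.78 and 6.93 RPKM in controls. In LN18 it was lower throughout, at 0.851, 0.779 and 0.718 RPKM with EGCG+HC, 1.76, 1.39 and 1.47 RPKM with HC, 1.18, 1.07 and 1.13 RPKM with EGCG, and 1.27, 1.10 and 1.22 RPKM in controls. In both lines the EGCG+HC libraries lay below and the HC libraries above all controls. The means were 0.657 and 0.654 of control with EGCG+HC and 1.30 and 1.28 with HC, in 1321N1 and LN18 in that order. The log2 change in 1321N1 with EGCG+HC was -0.52 ± 0.07, under the limit on the fold.

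NOTCH3 (chr19:15269849-15311806, minus strand) was the low receptor. In 1321N1 it had 1.33, 1.07 and 1.10 RPKM with EGCG+HC, 0.937, 0.858 and 0.750 RPKM with HC, 0.310, 0.383 and 0.416 RPKM with EGCG, and 0.303, 0.371 and 0.283 RPKM in controls. Its LN18 values were 0.359, 0.366 and 0.431 RPKM with EGCG+HC, 0.760, 0.474 and 0.623 RPKM with HC, 0.370, 0.391 and 0.399 RPKM with EGCG, and 0.0810, 0.102 and 0.169 RPKM in controls. The EGCG+HC means were 3.65-fold and 3.28-fold above the control means. It stayed under the filter of a mean of 1 RPKM and so was left out of the filtered fits. With no filter, 4 of 9 genes of the set were past the limits with EGCG+HC in 1321N1, NOTCH3 among them. NOTCH1 and NOTCH2 thus lay below their controls with EGCG+HC and NOTCH3 above.

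JAG1_1, the row nearest to the ligand JAG1, had 7.91, 8.15 and 7.60 RPKM with EGCG+HC, 15.2, 15.7 and 14.97 RPKM with HC, 7.01, 7.46 and 6.94 RPKM with EGCG, and 5.599, 5.24 and 5.29 RPKM in controls of 1321N1. In LN18 it had 5.98, 5.61 and 5.82 RPKM with EGCG+HC, 16.0, 14.8 and 16.1 RPKM with HC, 6.08, 5.75 and 5.54 RPKM with EGCG, and 6.12, 6.27 and 6.56 RPKM in controls. HC alone stood clear of every other group in both lines, at 2.84 and 2.48 times control in 1321N1 and LN18. The combination was at 1.47 and 0.919 times control. Its libraries lay between those of HC and EGCG in 1321N1, and overlapped EGCG below the controls in LN18.

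JAG2, the second Jagged ligand, stayed below 1 RPKM (chr14:105607319-105635161, minus strand). Its 1321N1 levels were 0.343, 0.346 and 0.366 RPKM with EGCG+HC and 0.310, 0.332 and 0.400 RPKM with HC, against 0.621, 0.640 and 0.614 RPKM in controls. Its LN18 levels were 0.385, 0.256 and 0.162 RPKM with EGCG+HC and 0.427, 0.442 and 0.466 RPKM with HC, against 0.326, 0.189 and 0.260 RPKM in controls. With HC it thus lay below the controls in 1321N1 and above them in LN18, while with EGCG+HC it overlapped the controls in LN18. With EGCG it had 0.357, 0.496 and 0.608 RPKM in 1321N1 and 0.192, 0.234 and 0.145 RPKM in LN18. The low levels rest on about 29 to 74 reads per library with EGCG+HC, HC or vehicle in both lines.

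HES1 (chr3:193853937-193856521, plus strand), the repressor made from the promoter printed above, was high wherever HC was given. The 1321N1 libraries had 7.72, 7.78 and 7.72 RPKM with EGCG+HC, 8.57, 8.92 and 10.2 RPKM with HC, 1.01, 1.67 and 1.48 RPKM with EGCG, and 1.90, 1.70 and 2.21 RPKM in controls. The LN18 libraries had 2.64, 2.47 and 2.46 RPKM with EGCG+HC, 2.68, 3.39 and 2.57 RPKM with HC, 1.10, 1.01 and 0.993 RPKM with EGCG, and 1.52, 1.59 and 1.53 RPKM in controls. In both lines all EGCG+HC and all HC libraries lay above the controls and all EGCG libraries below. The means with EGCG+HC were 3.996 and 1.63 times control, those with HC 4.77 and 1.86 times, and those with EGCG 0.714 and 0.668 times, in 1321N1 and LN18 in that order. The lowest 1321N1 EGCG value came from replicate 1, and the other two are from the libraries in which no depth was found.

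On the log2 scale HES1 with EGCG+HC rose by 1.58 ± 0.07 in 1321N1, past the limits. In LN18 it differed by 0.47 ± 0.05, where its fold of 1.38 was under the limit. With a pseudocount of 0.1 this LN18 change was 0.67 and past the limits. With HC, HES1 rose by 1.80 ± 0.09 in 1321N1 and by 0.60 ± 0.09 in LN18. The LN18 call with HC was lost without HC replicate 2 and under quantile normalization.

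HEY1, a second repressor of the same family (chr8:80674606-80680092, minus strand), was above the controls in every treated group. Cells of 1321N1 had 1.93, 1.63 and 1.49 RPKM with EGCG+HC, 3.06, 3.40 and 3.25 RPKM with HC, 0.984, 1.06 and 1.22 RPKM with EGCG, and 0.880, 0.808 and 0.706 RPKM in controls. Cells of LN18 had 2.19, 2.08 and 1.75 RPKM with EGCG+HC, 1.08, 1.02 and 1.11 RPKM with HC, 0.758, 0.729 and 0.679 RPKM with EGCG, and 0.343, 0.364 and 0.420 RPKM in controls. Its highest group was HC in 1321N1 and EGCG+HC in LN18. The EGCG+HC means were 2.11 and 5.35 times control. In 1321N1 its fold on the log2(RPKM + 1) scale was 1.49, just under the limit, and NOTCH2 at 1.503 was just over it. The call of NOTCH2 was lost without control replicate 1 (-0.57) and without EGCG+HC replicate 2 (-0.58). With EGCG+HC in both lines and with HC in 1321N1, HEY1 passed the filter on low values through the treated libraries alone.

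RBPJ (chr4:26165077-26436753, plus strand), the factor that carries the freed receptor on DNA, had 5.31, 5.25 and 5.41 RPKM with EGCG+HC, 4.79, 4.78 and 4.88 RPKM with HC, 6.51, 6.08 and 5.75 RPKM with EGCG, and 5.19, 5.51 and 5.43 RPKM in controls of 1321N1. In LN18 it had 14.8, 14.9 and 15.3 RPKM with EGCG+HC, 31.5, 28.7 and 31.4 RPKM with HC, 22.7, 23.1 and 22.8 RPKM with EGCG, and 25.6, 28.9 and 27.3 RPKM in controls. In 1321N1 the EGCG+HC libraries overlapped the controls, and the log2 change was -0.01 ± 0.04. In LN18 it fell by 0.82 ± 0.05 with EGCG+HC, to 0.550 of the control mean.

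**Figure D2:**
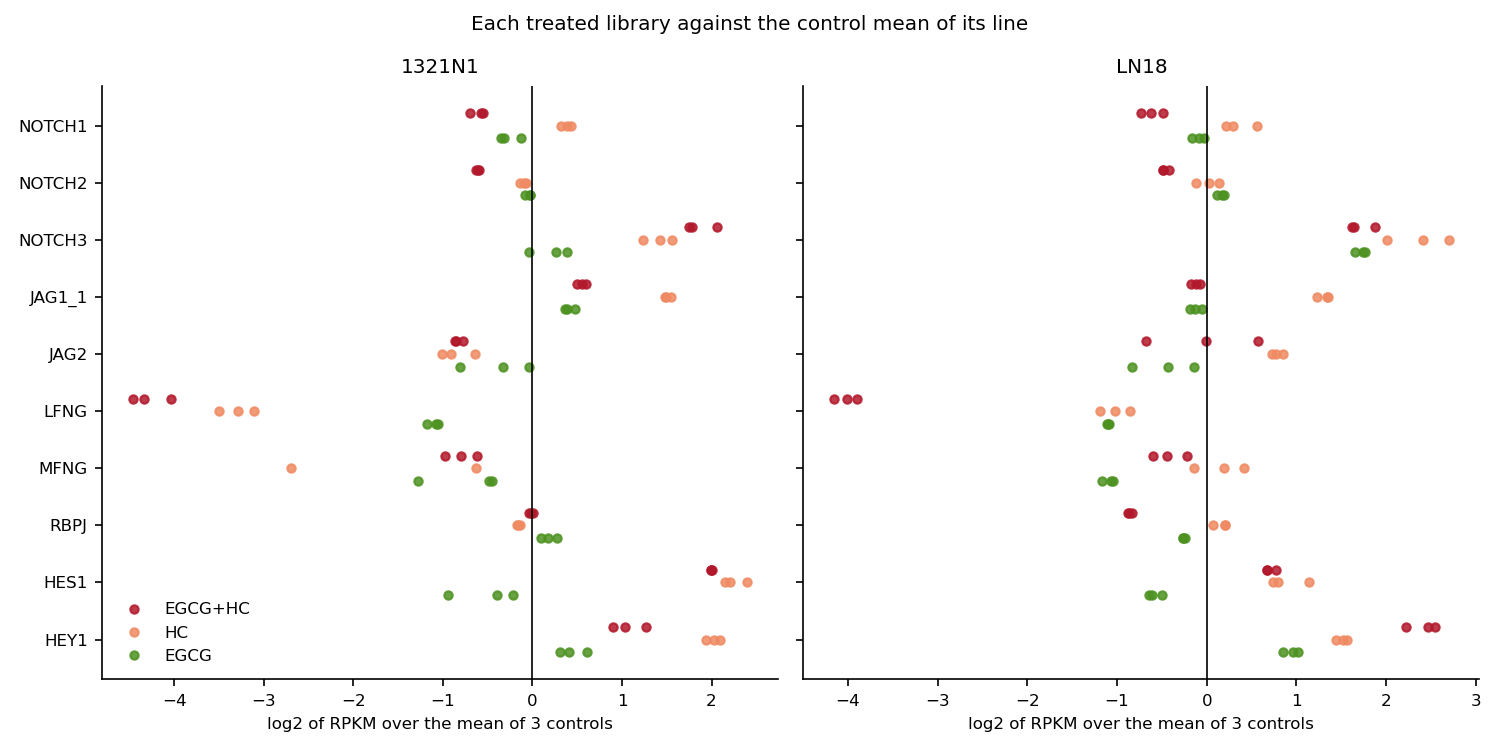
Log2 of the RPKM of each treated library over the mean of the 3 controls of its line, with 1 point for each library. The 1321N1 HC library with MFNG at 0 has no point. LFNG lies left of 0 in every library, NOTCH1 lies left with EGCG+HC and right with HC, and the HES1 points of EGCG lie left of 0 in both lines.

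By counts, EGCG+HC put 1 gene of the set past the limits upward (HES1) and 2 downward (LFNG and NOTCH2) of 6 fitted in 1321N1, where 23.1% of 13912 genes were called higher and 18.0% lower. In LN18 it put HEY1 past them upward and LFNG and RBPJ downward of 5 fitted, where 24.1% of 13807 genes were called higher and 22.2% lower. Without EGCG+HC replicate 1 HEY1 fell under the level filter there and was not fitted, which left 2 calls. With HC, HES1 and HEY1 were higher and LFNG lower of 6 fitted in 1321N1, beside 18.8% higher and 17.7% lower of all genes. That split was 2525 higher and 2378 lower, and 2373 and 2551 after quantile normalization. In LN18 HES1 was higher and LFNG lower of 5 fitted, beside 9.48% higher and 2.26% lower of all genes, or 813 against 487 genes in place of 1269 against 302 after quantile normalization. That scaling moved the median of all genes from 0.10 to -0.03 on the log2 scale. With EGCG only LFNG passed, downward, of 5 fitted in each line, beside 3.14% higher and 1.83% lower of all genes in 1321N1, and 9.11% higher and 9.70% lower in LN18. In 1321N1 the split of calls was 416 higher and 243 lower, and 292 and 333 after quantile normalization. With EGCG+HC the split was 3217 higher and 2500 lower in 1321N1 and 3331 and 3065 in LN18, and 2827 and 3133, and 3059 and 3380, after quantile normalization. Since the set was selected on these values, and LFNG and HEY1 passed the filter through 1 group in the comparisons named above, nothing is read from these counts and shares.

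The combination can also be set against its single parts. If the 2 single ratios to control multiplied, LFNG with EGCG+HC would have had 0.607 RPKM in 1321N1, and its mean was 0.665 RPKM. In LN18 the product was 1.67 RPKM and the mean 0.450 RPKM, 3.72-fold lower. HES1 was near its product in both lines, at 1.17 and 1.31 times, in 1321N1 and LN18. The JAG1_1 row was below it in both, at 0.389 and 0.405 times, and NOTCH1 at 0.607 and 0.543 times. RBPJ was at its product in 1321N1 (0.971 times) and below it in LN18 (0.587 times). HEY1 was the other way round, at 0.381 times in 1321N1 and 0.979 times in LN18.

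In the fit over the 12 libraries of a line, on the log2(RPKM + 1) scale, the change beyond the sum of single changes was -0.88 ± 0.11 for HEY1 and -0.63 ± 0.10 for NOTCH1 in 1321N1, both past the limits downward. For HES1 it was 0.08 ± 0.15. There 10.3% of 13727 genes were called higher and 12.8% lower. In LN18 it was -0.75 ± 0.10 for LFNG and -0.73 ± 0.06 for RBPJ, both past the limits downward, and 0.19 ± 0.10 for HES1. There 14.5% of 13686 genes were called higher and 23.1% lower. NOTCH2 in LN18 was at -0.58 ± 0.07, just under the fold limit. It was past the limits with a pseudocount of 0.1, after rescaling without mitochondrial genes and in some fits without 1 library. The row JAG1_1, not counted in the set, was at -1.23 ± 0.06 in 1321N1 and -1.18 ± 0.06 in LN18, past the limits downward. In 1321N1 several alternatives left 1 gene of the set past the limits, HEY1. The call of NOTCH1 was lost without control replicate 2, without EGCG replicate 3, after quantile normalization and after rescaling without mitochondrial genes. It was also lost without EGCG replicates 2 and 3, an alternative chosen after seeing the data. In 1321N1 the value of LFNG was 0.52 ± 0.10 on this scale, while its mean was only 1.09 times its product. Adding 1 to RPKM compresses values under 1, so the size on this scale is not that of the ratio.

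**Figure D3:**
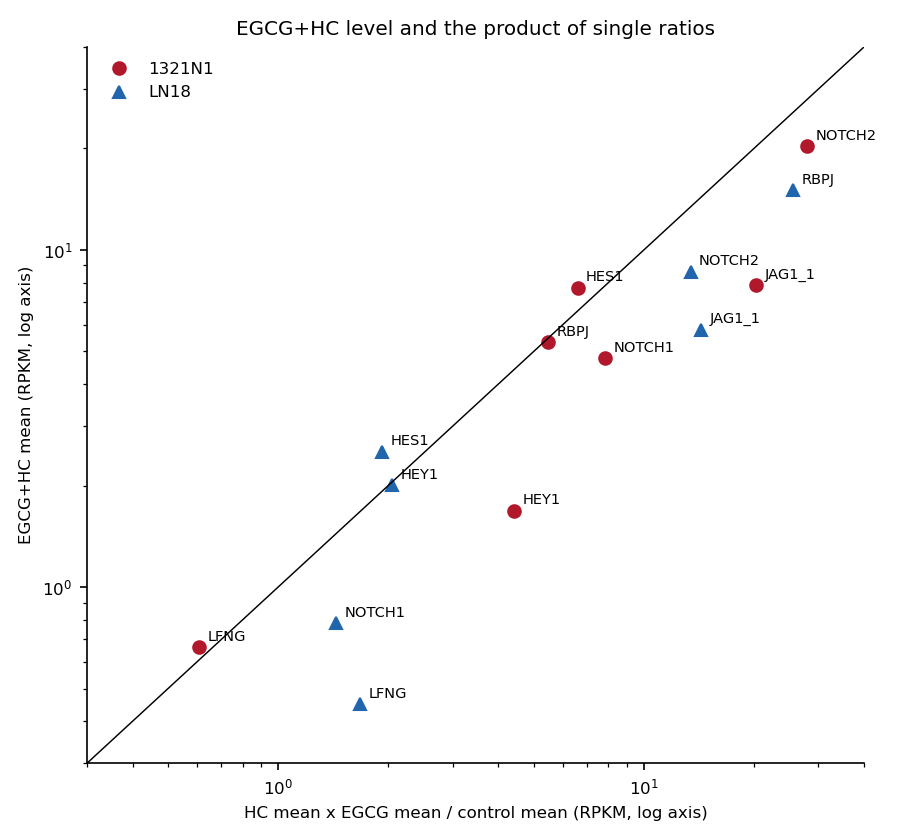
Mean RPKM with EGCG+HC (vertical, log axis) against the product of the HC and EGCG means over the control mean (horizontal, log axis), for 7 genes in each line, with the line of equality. LFNG of 1321N1 lies on the line, LFNG of LN18 lies 3.72-fold under it, and both JAG1_1 points lie under it.

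Without treatment the lines differed in these genes. Since the medium of LN18 held less serum, the line and the serum cannot be told apart in these differences. RBPJ averaged 27.3 ± 1.66 RPKM in LN18 controls and 5.37 ± 0.17 RPKM in 1321N1 controls (SD, n = 3 each), a ratio of 5.08. NOTCH1 was 6.07-fold lower in LN18 controls, NOTCH2 2.61-fold lower and LFNG 1.76-fold lower. On the log2 scale the differences were 2.15 ± 0.05 for RBPJ, -1.91 ± 0.07 for NOTCH1, -1.31 ± 0.04 for NOTCH2 and -0.74 ± 0.07 for LFNG, all past the limits. The HES1 difference of -0.20 ± 0.08 was not. These calls, 1 higher and 3 lower of 5 fitted, stand beside 21.9% of 13293 genes higher and 20.7% lower. NOTCH1, NOTCH2 and RBPJ kept this order of lines, without overlap of libraries, under all 4 treatments, whereas LFNG was 2.75-fold higher in LN18 than in 1321N1 with HC, which was given at different doses.

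The pathway holds many other genes, of which 67 were listed by role and 54 in 1321N1 and 52 in LN18 could be tested. With EGCG+HC, 10 were higher and 11 lower in 1321N1, and 7 were higher and 14 lower in LN18 (limma, adjusted over all genes), beside 23.1% higher and 18.0% lower of all genes in 1321N1 and 24.1% and 22.2% in LN18. Their median log2 change was -0.24 in both lines, beside -0.01 and 0.01 for all genes. In 1321N1, MAML3 and HES7 passed the filter on low values through the EGCG+HC libraries alone, and DLK2 and TLE2 through the controls alone. In LN18, APH1B and DTX4 passed it through the controls alone. These genes are among those tested, and a call of such a gene is no support. CIR1, EP300, FBXW7, MYC and TLE3 were higher in both lines, which is 5 of the 10 higher genes in 1321N1 and 71.4% of those in LN18. In all, 4 genes were lower in both, 36.4% and 28.6% of the lower ones, among them CCND1, DLK2 and HDAC1. Over all genes, the calls shared by both lines were 53.5% of the higher ones in 1321N1 and 51.7% in LN18, and 53.1% and 43.3% of the lower ones, so that nothing particular to the pathway is read from these shares. ADAM17, a protease listed for its role in cutting the receptor, was higher in 1321N1 (0.64 ± 0.04, adjusted p = 3.95e-06) and lower in LN18 (-0.76 ± 0.04, adjusted p = 2.38e-06). ADAM10, listed for the same role, was past the limits in neither line. It had 9.35, 9.28 and 9.39 RPKM with EGCG+HC, against 12.9, 13.6 and 14.0 RPKM in controls of 1321N1. In LN18 it had 6.94, 7.19 and 7.23 RPKM with EGCG+HC, against 10.1, 9.80 and 9.90 RPKM in controls. DLL3, DLK1 and HES5 were listed in no sheet. The lists were chosen with earlier results of these data known, and many genes are named for their change. The adjusted p of named pathway genes therefore describe them and are not tests set in advance.

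Among the ligands and ligand handling genes, NEURL1B, a ubiquitin ligase that acts on ligands, had 2.43 ± 0.18 RPKM with EGCG+HC and 13.7 ± 0.68 RPKM in controls of 1321N1 (log2 change -2.10 ± 0.06, adjusted p = 1.2e-07). In LN18 it was under 1 RPKM in both groups. DLK2, an atypical ligand without the usual receptor-binding domain, had 4.06 ± 0.58 RPKM with EGCG+HC and 10.0 ± 0.50 RPKM in controls of LN18 (-1.13 ± 0.09, adjusted p = 1.2e-05). In 1321N1 its means were 0.559 RPKM with EGCG+HC and 1.44 RPKM in controls, and it passed the filter through the controls alone, so its call there is no support.

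The glycosylation genes lay mostly below 0. POFUT1, which puts on the O-fucose that fringe enzymes extend, was lower in 1321N1 (-0.75 ± 0.03, adjusted p = 5.94e-07) and at -0.34 ± 0.03 in LN18, under the fold limit. RFNG was lower in LN18 (-0.71 ± 0.10, adjusted p = 0.000328) and at -0.25 ± 0.06 in 1321N1, also under it. Of 7 tested, 1 was lower in 1321N1 and 2 in LN18, and 0 were higher in either line, beside the 18.0% and 22.2% lower of all genes.

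Of 9 protease genes, 5 were lower and 0 higher in LN18 and 1 was higher and 0 lower in 1321N1, beside 22.2% of all genes lower in LN18 and 23.1% higher in 1321N1. The lower ones in LN18 were ADAM17 and the gamma-secretase subunits APH1A, APH1B, NCSTN and PSEN2, with log2 changes from -0.93 ± 0.08 for APH1B to -0.64 ± 0.03 for NCSTN. APH1B passed the filter through the controls alone (0.704 RPKM with EGCG+HC and 2.23 RPKM in controls). Gamma-secretase makes the last cut of the receptor. In the fit of EGCG+HC beyond the single treatments all 9 were past the limits downward in LN18 and 1 of 9 in 1321N1, beside the 23.1% and 12.8% given above. Over all listed pathway genes that fit put 22 lower and 3 higher of 53 in LN18, and 6 lower and 2 higher of 54 in 1321N1. After quantile normalization the calls over all genes in LN18 were 2400 higher and 2612 lower, in place of 1988 and 3159. The pathway counts of that fit were not recomputed under the alternatives.

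The partners of RBPJ in the nucleus moved in both directions. CIR1, a corepressor that binds RBPJ, rose by 1.27 ± 0.07 in 1321N1 (adjusted p = 2.81e-06) and 1.31 ± 0.05 in LN18 (adjusted p = 5.52e-07). TLE3, a Groucho-type corepressor that HES proteins use, rose by 1.02 ± 0.07 (adjusted p = 6.48e-06) and 0.69 ± 0.05 (adjusted p = 7.32e-06). KAT2A, a histone acetyltransferase, was lower in LN18 (-1.35 ± 0.05, adjusted p = 2.3e-07) and at -0.57 ± 0.06 in 1321N1, under the fold limit.

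**Figure D4:**
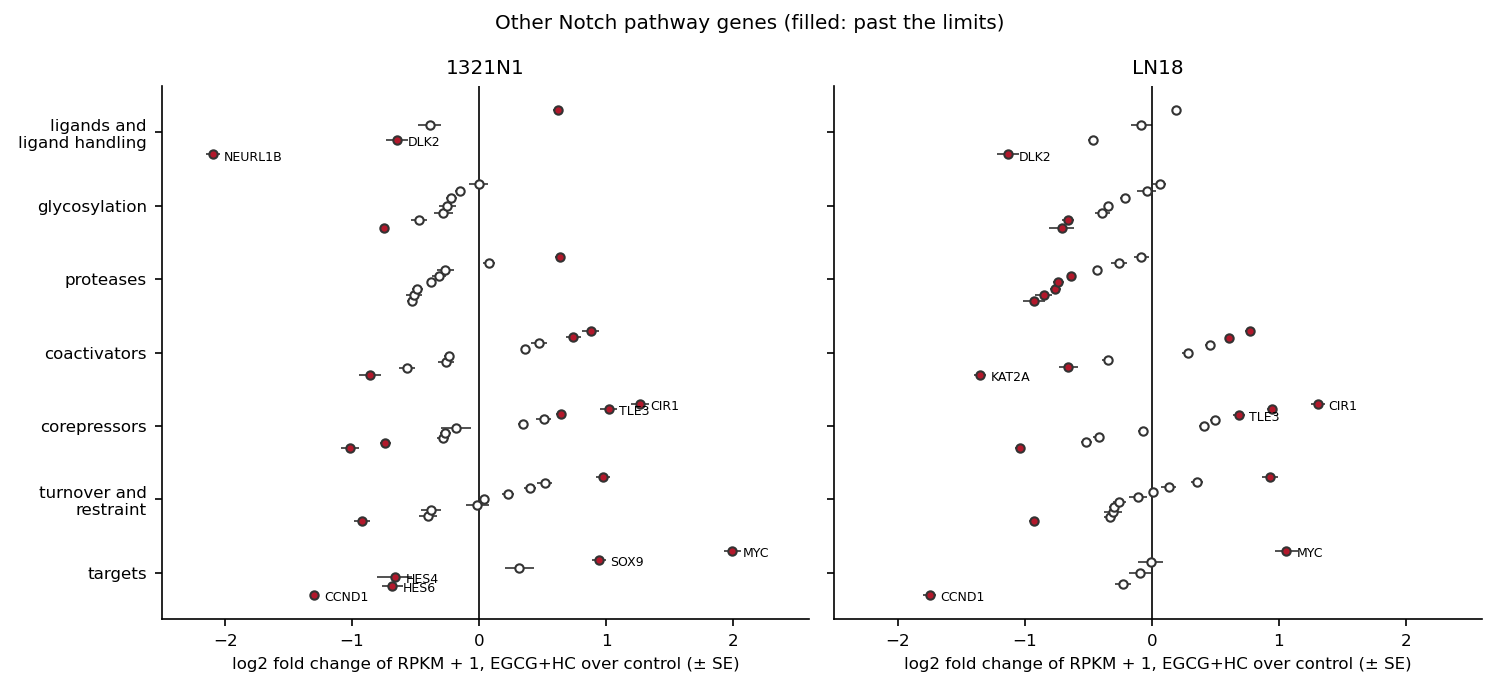
Log2 fold change of RPKM + 1 with EGCG+HC over control (horizontal, ± limma SE) of the other pathway genes, in rows by role, for 1321N1 and LN18. Filled points passed the limits, and named points were chosen by the rule for naming genes. Genes not reported here are not drawn. CCND1 lies far left and CIR1, MYC and TLE3 to the right in both lines.

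Of the other genes that Notch can drive, MYC and CCND1 went opposite ways. MYC had 26.9 ± 0.81 RPKM with EGCG+HC and 6.01 ± 0.64 RPKM in controls of 1321N1, and 9.09 ± 0.78 RPKM with EGCG+HC and 3.85 ± 0.49 RPKM in controls of LN18 (adjusted p = 2.93e-07 and 1.95e-05). CCND1, cyclin D1, had 27.2 ± 0.11 RPKM with EGCG+HC and 68.4 ± 0.81 RPKM in controls of 1321N1, and 16.2 ± 0.36 RPKM with EGCG+HC and 56.9 ± 4.14 RPKM in controls of LN18 (adjusted p = 6.57e-08 and 1.6e-07). SOX9, a factor of glial progenitors, rose by 0.95 ± 0.06 in 1321N1 (adjusted p = 3.68e-06) and was at -0.23 ± 0.07 in LN18. HES4 and HES6, relatives of HES1, fell by 0.66 ± 0.14 and 0.68 ± 0.08 in 1321N1 (adjusted p = 0.00305 and 0.000151) and were at -0.01 ± 0.10 and -0.09 ± 0.09 in LN18. HES7 was at 0.32 ± 0.11 in 1321N1 with EGCG+HC, under the fold limit, and under the level filter in LN18. MYC and CCND1 are also controlled by many other pathways.

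The single treatments gave these counts for the same lists. With HC 10 were higher and 8 lower of 53 tested in 1321N1, and 6 were higher and 1 lower of 53 in LN18, beside 18.8% and 17.7% of all genes in 1321N1 and 9.48% and 2.26% in LN18. The 7 calls in LN18 became 4 without HC replicate 1 and 2 after quantile normalization. With EGCG 0 were higher and 1 lower of 52 in 1321N1, and 0 were higher and 2 lower of 54 in LN18, where a pseudocount of 0.1 gave 9 calls. All genes had 3.14% higher and 1.83% lower calls in 1321N1 and 9.11% and 9.70% in LN18. The 2 lower ones in LN18 were CCND1 (-1.79 ± 0.06, adjusted p = 1.58e-06) and KAT2A (-0.74 ± 0.05, adjusted p = 1.18e-05). HES7 passed the filter on low values through the HC libraries alone in both lines. With EGCG in LN18, HES7 and NEURL1B passed it through the EGCG libraries alone. In 1321N1, DLK2 with HC and TLE2 with EGCG passed it through the controls alone. These genes are among those tested, and a call of such a gene is no support.

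Genes with the most similar pattern were sought by Pearson correlation of the 8 group means of log2(RPKM + 1) over 10598 other protein-coding genes. For LFNG these were KIF1C (r = 0.992), HYAL2 (0.986), MLLT1 (0.981), PCBP4 (0.978) and PSRC1 (0.976). For HES1 they were NFKBIZ (0.981), PLAUR (0.979), SIRT7 (0.978), CSGALNACT2 (0.975) and UBALD2 (0.975), and for the row JAG1_1 MOSPD2 (0.983), FAM117A (0.967), NQO2 (0.953), LGMN (0.931) and ATP2C1 (0.930). The 8 means share libraries, lines and treatments, so these values describe the likeness only.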

How the data were processed

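Poly(A) RNA of 24 libraries was measured with an unstranded TruSeq kit, so that reads of a gene and of one overlapping it on the other strand are counted together. The authors trimmed the reads, used FastQC, mapped to GRCh37, also called hg19, and deposited 1 RPKM value per gene and library from CLC Genomics Workbench. The gene annotation is not given in the sources used here. Groups were taken from the titles of the samples.

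Date-like names, 25 to 27 per sheet, were left out. With limma 3.58.1 (empirical Bayes, trend, R 4.3.3), log2(RPKM + 1) was fitted for genes averaging 1 RPKM or more and listed in every sheet in the fit. The limits were 0.05 for p adjusted by Benjamini and Hochberg and 1.5 for the fold. Pairs of groups had fits of 6 libraries, and the combination beyond its parts 12. The fit was tested on simulated data before use. Depth was sought from the steps of low values in single-exon genes, of which 80.1 to 86.6% lay within 0.1 of whole reads in 22 libraries. Tables were made with Python 3.11.15 and pandas 2.3.3, and gene positions are from GENCODE v44lift37.

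Named genes were every gene of the set, the targets averaging 1 RPKM or more, and in each line up to 6 other pathway genes past the limits with the largest change with EGCG+HC and no overlap, and the 5 genes most alike LFNG, HES1 and JAG1. Other genes named in the pathway counts were chosen after their values were seen. Some pathway genes are counted but not reported here. NEURL1 was read under its older symbol NEURL. The set and the lists were chosen with earlier results of these data known. Alternatives were a pseudocount of 0.1, no filter, quantile normalization, rescaling without mitochondrial genes, the replicate number as a block and leaving out each library.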

Additional observations from a re-analysis of the deposited data

Results flagged for a closer look

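In these genes the libraries of one line all lay above their controls and those of the other all below, under the same treatment, and the difference was not tested. The dose of EGCG was the same in both lines and that of HC was not. With EGCG+HC, JAG1_1 was at 1.467 times control in 1321N1 and 0.919 times in LN18, and SOX9 at 2.120 and 0.819 times. With EGCG, JAG1_1 was at 1.328 and 0.917 times, RBPJ at 1.138 and 0.837 times, HES7 at 0.740 and 1.859 times, and TLE3 at 0.864 and 1.482 times. The 1321N1 EGCG group includes replicates 2 and 3, in which no depth was found. JAG1_1 with EGCG+HC and with EGCG, and RBPJ with EGCG, were past the limits in neither line. With EGCG no listed pathway gene was called higher in either line, HES7 and TLE3 included. SOX9 with EGCG+HC was under the fold limit in LN18. HES7 averaged only 0.807 and 0.716 RPKM in controls of 1321N1 and LN18. With HC, JAG2 was at 0.556 and 1.723 times, CCND1 at 0.492 and 1.124 times, and KAT2A at 0.549 and 1.175 times. JAG2 was under the level filter in both lines, and CCND1 and KAT2A were under the fold limit in LN18.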

How the results depend on the processing

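Of 120 fold changes of the set with EGCG+HC recomputed under the alternatives, JAG1_1 not counted, 111 kept their direction and their side of the limits, and 164 of 179 counts stayed within 1.5 times. With a pseudocount of 0.1 the genes of the set past the limits numbered 5 in place of 3 for EGCG+HC in 1321N1 (HEY1 and NOTCH1 were added) and 4 in place of 2 for the combination beyond its parts in LN18, and the other pathway genes 2 in place of 1 for EGCG in 1321N1 and 9 in place of 2 for EGCG in LN18. After quantile normalization the counts were 1 in place of 2 (set) and 2 in place of 7 (other pathway genes) for HC in LN18, and 1 in place of 2 for the combination beyond its parts in 1321N1, as after rescaling without mitochondrial genes (1). Quantile normalization moved the median of all genes for the combination beyond its parts in LN18 to -0.03, against -0.13 as deposited. Leaving out each library gave ranges of 1 to 2 for the set with HC in LN18 (1 without HC replicate 2), 4 to 7 for the other pathway genes there (4 without HC replicate 1), 1 to 2 for the other pathway genes with EGCG in 1321N1 (2 without EGCG replicate 3) and 1 to 2 for the combination beyond its parts in 1321N1. The RBPJ change with EGCG+HC in 1321N1 ran from -0.0330 to 0.0034, so its sign is not settled. With EGCG replicates 2 and 3 of 1321N1 left out, the other pathway genes past the limits with EGCG were 2 and the genes of the set beyond the sum 1, in a fit where the 1 EGCG library left is assumed to vary like the other groups. This second alternative was chosen after seeing the data. The causes were not tested.

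With the replicate number as a block, all 14 counts equalled those without it, such as 3 genes of the set and 21 other pathway genes for EGCG+HC in 1321N1. Deviations of samples with the same number were at most weakly correlated (18 pairs, correlations from -0.12 to 0.12). No pairing by number was seen, and this check cannot exclude that such samples were handled together.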
